A study of Mus musculus with 4 samples.

Results

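Transcripts of 10 genes that encode the NF-κB machinery were examined in mouse embryonic stem cells (mESCs), out of 37310 genes in the deposited count table. The 10 were taken by name from what their proteins do: the subunits *Nfkb1*, *Nfkb2*, *Rel*, *Rela* and *Relb*, the inhibitors *Nfkbia*, *Nfkbib* and *Nfkbie*, and the kinases *Ikbkb* and *Chuk*. Each gene was compared with the other genes of its own chromosome, chromosome 19 above all. RNA-seq libraries came from wild-type (WT) mESCs of the HATX line and from *Spen* knockout (KO) clone 2, derived from the same line, with 2 libraries per group. Both carry an X-linked *Xist* transgene that doxycycline switches on, have a mixed genomic background and are described as haploid. Both were grown on gelatin in serum with LIF, and the labels give no treatment. The deletion of *Spen*, a gene for an RNA-binding repressor, is described as full in one place and as most of the gene in another. Only 1 clone was sequenced, so clone and genotype cannot be told apart, and nothing states that the libraries of a group came from separate cultures. The p-values therefore measure the spread between these libraries, which may be technical.

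NF-κB is a family of transcription factors that act as dimers of Rel-domain proteins. In resting cells IκB proteins hold the dimers in the cytoplasm. Signals from cytokine receptors activate the IκB kinases, which mark IκB for ubiquitination and degradation, and the freed dimers enter the nucleus. The gene for IκBα, *Nfkbia*, is itself a classical NF-κB target, which closes a negative feedback loop. In mESCs the pathway is known to be held at low activity and to become more responsive upon differentiation.

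Total counts per library ranged from 36667685 to 61908422, with the WT libraries the shallower ones. *Spen* had 3716 and 3047 normalized counts in WT and 7797 and 6242 in the libraries labelled KO, and its gene-level count was higher there (log2 fold change 1.05 ± 0.21 SE, DESeq2 adjusted p = 7.70e-06), which on its own does not check the label. The study reports that *Spen* mRNA rose on loss of the protein and was bound by Spen. From this it proposes that Spen represses its own mRNA. That report may rest on these same libraries, so it is no separate check of the label. Since the count does not check it, the group is called KO-labelled, and every direction rests on that label. All 8 markers of mESCs were detected, and the pluripotency factor *Nanog* had means of 47702 and 45884 normalized counts in WT and KO-labelled libraries. In bulk RNA, fewer cells of a type and less RNA per cell cannot be told apart.

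Promoter sequence is shown for 5 of the 10 genes, because NF-κB is known to act on promoters of its own inhibitors through the κB element. The windows run from 250 bases before to 50 bases after an annotated start. They come from RefSeq on GRCm38.p6, a later build than the mm9 build of the counts, and 7 of the 10 genes had an entry there (*Nfkb1*, *Relb* and *Ikbkb* had none). Capitals mark matches to the κB consensus on either strand, each sequence is written 5′ to 3′ on the strand of its gene, and overlapping matches are merged. The 2 inhibitor genes that rose relative to their own chromosome are *Nfkbia* (chr12:55492598-55492897, minus strand) and *Nfkbie* (chr17:45555450-45555749, plus strand).
Nfkbia: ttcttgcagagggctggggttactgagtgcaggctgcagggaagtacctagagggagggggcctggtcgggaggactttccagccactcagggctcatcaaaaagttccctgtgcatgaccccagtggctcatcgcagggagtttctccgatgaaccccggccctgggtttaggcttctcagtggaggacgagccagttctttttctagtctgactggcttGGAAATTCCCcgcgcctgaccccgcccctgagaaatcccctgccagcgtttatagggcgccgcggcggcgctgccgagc
Nfkbie: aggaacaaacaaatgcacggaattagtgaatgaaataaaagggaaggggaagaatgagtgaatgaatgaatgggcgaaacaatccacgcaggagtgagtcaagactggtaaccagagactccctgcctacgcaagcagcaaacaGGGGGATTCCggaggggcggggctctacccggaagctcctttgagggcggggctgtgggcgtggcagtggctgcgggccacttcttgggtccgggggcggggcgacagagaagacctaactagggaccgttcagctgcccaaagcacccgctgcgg
The 3 members on chromosome 19 are *Nfkb2* (first of 3 annotated starts, chr19:46304487-46304786, plus strand), *Rela* (chr19:5637291-5637590, plus strand) and *Chuk* (chr19:44107428-44107727, minus strand).
Nfkb2: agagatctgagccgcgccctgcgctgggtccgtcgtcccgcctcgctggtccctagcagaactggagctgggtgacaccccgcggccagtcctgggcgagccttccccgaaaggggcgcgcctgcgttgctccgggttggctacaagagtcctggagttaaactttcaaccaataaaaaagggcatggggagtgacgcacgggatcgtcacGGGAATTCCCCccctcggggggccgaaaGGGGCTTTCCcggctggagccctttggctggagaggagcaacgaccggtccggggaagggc
Rela: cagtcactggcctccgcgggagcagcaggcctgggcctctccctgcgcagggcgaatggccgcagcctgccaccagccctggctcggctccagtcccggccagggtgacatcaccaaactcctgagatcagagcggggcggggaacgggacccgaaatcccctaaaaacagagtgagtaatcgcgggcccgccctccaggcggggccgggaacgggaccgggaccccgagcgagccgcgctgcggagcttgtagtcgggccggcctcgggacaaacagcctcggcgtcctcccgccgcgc
Chuk: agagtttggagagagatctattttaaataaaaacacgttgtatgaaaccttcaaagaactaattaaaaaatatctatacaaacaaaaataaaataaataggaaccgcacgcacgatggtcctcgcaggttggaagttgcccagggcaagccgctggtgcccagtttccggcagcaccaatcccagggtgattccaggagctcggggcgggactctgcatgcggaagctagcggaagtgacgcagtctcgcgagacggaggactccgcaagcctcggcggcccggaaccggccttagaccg

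The κB consensus matched once in the *Nfkbia* window, at 29 bases before the start, and once in the *Nfkbie* window, at 106 bases before it. In the first *Nfkb2* window there were 3 matches, of which 2 overlap each other on opposite strands. The windows of the other *Nfkb2* starts had 2 and 1 matches, but these windows overlap and share 1 of the matches, and the *Rel* window had 2, which overlap each other. The windows of *Rela*, *Nfkbib* and *Chuk* held none. Among all 32851 windows of this length in the table, 4.51% held at least 1 match. The GC box, GGGCGG on either strand, stood in 35.7% of all windows, including those of *Nfkbia*, *Nfkbie*, *Rela*, *Chuk* and *Rel* and those of the later *Nfkb2* starts but not the first. A match describes letters and is not a measured binding site, and the absence of one says only that these letters are not in the window.

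At an adjusted p under 0.05, 7 of the 10 genes rose in the KO-labelled libraries, 0 fell and 3 did not pass the test (DESeq2 over all genes). Across the 17710 genes with an adjusted p, 16.4% were called higher and 15.8% lower. The median log2 fold change was 0.41 over the 10 genes and 0.00 over all genes tested. None of the 10 reached the study's own thresholds of a 2-fold change with an adjusted p under 0.001, which 4.51% of genes did. A DESeq2 fit in which every chromosome of every library had its own scaling factor then asked how each gene stood against its chromosome. In that fit 3 of the 10 genes were higher (*Nfkb1*, *Nfkbia* and *Nfkbie*) and 0 lower, where 12.7% of the 17230 genes tested were higher and 14.5% lower.

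**Figure D1:**
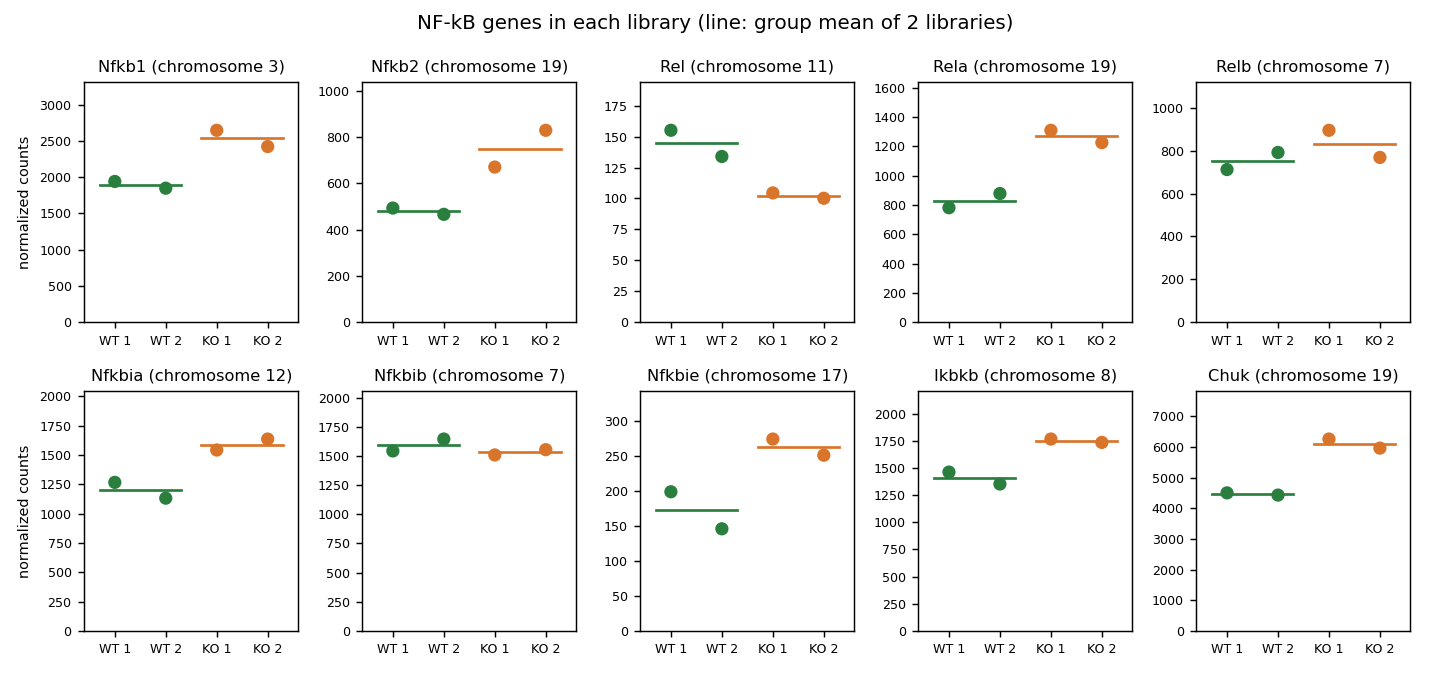
Normalized counts (y axes, each from 0) of the 10 genes in WT (green) and KO-labelled (orange) libraries, with lines at the mean of 2 libraries. The groups do not overlap for *Nfkb1*, *Nfkb2*, *Rel*, *Rela*, *Nfkbia*, *Nfkbie*, *Ikbkb* and *Chuk*, and they overlap for *Relb* and *Nfkbib*. Of the separated genes, the KO-labelled libraries are lower only for *Rel*, whose change did not pass the test. The share of all genes whose groups do not overlap was not counted, so this separation is not read as a result about these genes.

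Among the subunits, *Rela* (ENSMUSG00000024927.6, chromosome 19, 5637483 to 5648130 on mm9, plus strand) encodes p65, the main activating subunit of the classical pathway. Its normalized counts were 781 and 878 in WT and 1310 and 1225 in the KO-labelled libraries. Both KO-labelled libraries lay above both WT libraries. *Rela* rose 1.53-fold, a log2 fold change of 0.61 ± 0.12 (SE, DESeq2 adjusted p = 1.00e-05). Relative to chromosome 19 the difference was 0.23 ± 0.13, with a 95% interval of -0.02 to 0.47, and did not pass (adjusted p = 0.184). It was 0.15 without WT replicate 1.

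*Nfkb1* (ENSMUSG00000028163.8, chromosome 3, 135247619 to 135354511, minus strand) encodes p105, the precursor that is processed to the p50 partner of p65. It had 1941 and 1848 normalized counts in WT and 2647 and 2423 in the KO-labelled libraries. WT and KO-labelled values were apart, and the gene rose 1.34-fold, by 0.42 ± 0.10 on the log2 scale (DESeq2 adjusted p = 1.16e-04). The other 606 genes of chromosome 3 with a mean of at least 50 normalized counts had a median log2 fold change of only 0.09. *Nfkb1* was still higher relative to its chromosome, by 0.35 ± 0.10 (adjusted p = 0.0019). That call was lost without WT replicate 2 (adjusted p = 0.123) and without KO-labelled replicate 1 (0.164).

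*Nfkb2* (ENSMUSG00000025225.7, chromosome 19, 46379227 to 46386580, plus strand) encodes p100, which is an inhibitor until it is processed to p52 in the alternative pathway. Its normalized counts were 493 and 466 in WT and 670 and 829 in the KO-labelled libraries. These last were higher but further apart from each other, with an SD of 112 around a mean of 750.0, against 19.2 around 479.6 in WT. The gene rose 1.56-fold, by 0.65 ± 0.16 on the log2 scale (DESeq2 adjusted p = 4.09e-04). Without KO-labelled replicate 2 the log2 fold change was 0.49 and did not pass (adjusted p = 0.126). Relative to chromosome 19 the difference was 0.26 ± 0.16, with a 95% interval of -0.06 to 0.58 (adjusted p = 0.251). It was 0.11 without KO-labelled replicate 2 and 0.39 without KO-labelled replicate 1.

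*Relb* (ENSMUSG00000002983.9, chromosome 7, 20191566 to 20214787, minus strand) encodes the usual partner of p52. It had 712 and 792 normalized counts in WT and 895 and 768 in the KO-labelled libraries, so the groups overlapped. The log2 fold change was 0.14 ± 0.14, with a 95% interval of -0.14 to 0.42 (DESeq2 adjusted p = 0.503). *Rel* (ENSMUSG00000020275.8, chromosome 11, 23641514 to 23670970, minus strand) encodes c-Rel, best known from lymphocytes. Its normalized counts were 155 and 134 in WT and 104 and 100.2 in the KO-labelled group, the reverse order of the other separated members. The log2 fold change of -0.50 ± 0.31 had a 95% interval of -1.10 to 0.10 and did not pass (DESeq2 adjusted p = 0.228). Relative to chromosome 11 it was -0.65 ± 0.31, which did not pass with DESeq2 (adjusted p = 0.0992) but did with edgeR (adjusted p = 0.0204). Of the other 1142 genes of chromosome 11, 6.22% had a lower log2 fold change.

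For 2 of the inhibitors, *Nfkbia* and *Nfkbie*, the other genes of the chromosome had a median below 0. *Nfkbia* (ENSMUSG00000021025.7, chromosome 12, 56590398 to 56593634, minus strand) encodes IκBα, the inhibitor that is degraded and resynthesised fastest. It had 1266 and 1131 normalized counts in WT and 1542 and 1636 in the KO-labelled libraries. All KO-labelled values were above WT, a 1.33-fold rise of 0.41 ± 0.11 on the log2 scale (DESeq2 adjusted p = 0.00169). The other 465 genes of chromosome 12 had a median of -0.32, and 98.3% of them had a lower log2 fold change than *Nfkbia*. Of the 20 nearest genes, 5 had a log2 fold change above 0 and 1 exceeded *Nfkbia*. Relative to its chromosome *Nfkbia* was higher by 0.72 ± 0.11 (adjusted p = 2.90e-09), and in the 10 fits of that comparison the value lay between 0.64 and 0.79, with adjusted p at most 8.66e-04. Over all genes the call was lost without WT replicate 2 (adjusted p = 0.120) and without KO-labelled replicate 2 (0.109).

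*Nfkbie* (ENSMUSG00000023947.7, chromosome 17, 45692665 to 45700118, plus strand) encodes IκBε, a slower inhibitor that is likewise induced by NF-κB. Its normalized counts were 199 and 146 in WT and 274 and 251 in the KO-labelled libraries. These groups did not overlap, although the WT libraries differed from each other by 0.45 on the log2 scale. The gene rose 1.52-fold, by 0.61 ± 0.25 on the log2 scale (DESeq2 adjusted p = 0.0448). This call was lost when any single library was left out (log2 fold changes from 0.41 to 0.85). It was also lost with the replicate block (DESeq2 adjusted p = 0.1225). Chromosome 17 had a median of -0.14 over 647 other genes, of which 97.2% had a lower log2 fold change, and none of its 20 nearest genes exceeded it. Relative to the chromosome the difference was 0.74 ± 0.25 (DESeq2 adjusted p = 0.0148). That call was lost without WT replicate 2, KO-labelled replicate 1 or KO-labelled replicate 2 (differences of 0.52, 0.68 and 0.81). It was also lost with the replicate block (DESeq2 adjusted p = 0.067).

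*Nfkbib* (ENSMUSG00000030595.8, chromosome 7, 29543270 to 29552531, minus strand) encodes IκBβ, which is not part of the fast feedback. It had 1543 and 1645 normalized counts in WT and 1509 and 1554 in the KO-labelled libraries, which overlap. The log2 fold change was -0.06 ± 0.10, with a 95% interval of -0.26 to 0.15 (DESeq2 adjusted p = 0.738), and relative to chromosome 7 it was -0.15 ± 0.10 (adjusted p = 0.327). Its neighbour *Sirt2*, on the other strand, shares 42 exonic bases with it, or 1.94% of its exonic length.

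Of the kinases, *Chuk* (ENSMUSG00000025199.9, chromosome 19, 44147824 to 44181970, minus strand) encodes IKKα, which drives processing of p100. Its normalized counts were 4501 and 4429 in WT and 6257 and 5961 in the KO-labelled libraries. These groups lay far apart for their spread, and the 1.37-fold rise of 0.45 ± 0.08 on the log2 scale had the smallest adjusted p of the 10 genes (DESeq2, 4.67e-08). Against chromosome 19 little of it was left, 0.07 ± 0.08 with a 95% interval of -0.09 to 0.22 (adjusted p = 0.604). It was 0.020 without KO-labelled replicate 1 and 0.12 without KO-labelled replicate 2. Sequence with a close copy elsewhere in the genome made up 13.0% of its exonic bases, so part of its count is uncertain.

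*Ikbkb* (ENSMUSG00000031537.8, chromosome 8, 23769684 to 23817061, minus strand) encodes IKKβ, the kinase of the classical pathway. It had 1462 and 1353 normalized counts in WT and 1767 and 1736 in the KO-labelled libraries. WT and KO-labelled values were apart, and the gene rose 1.24-fold, by 0.32 ± 0.10 on the log2 scale (DESeq2 adjusted p = 0.0106). That call was lost without WT replicate 2, KO-labelled replicate 1 or KO-labelled replicate 2 (log2 fold changes 0.26, 0.31 and 0.33). It was also lost with the replicate block (DESeq2 adjusted p = 0.0815). Relative to chromosome 8 the difference was 0.23 ± 0.11, which did not pass with DESeq2 (adjusted p = 0.0945) and did with edgeR (adjusted p = 0.0396).

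**Figure D2:**
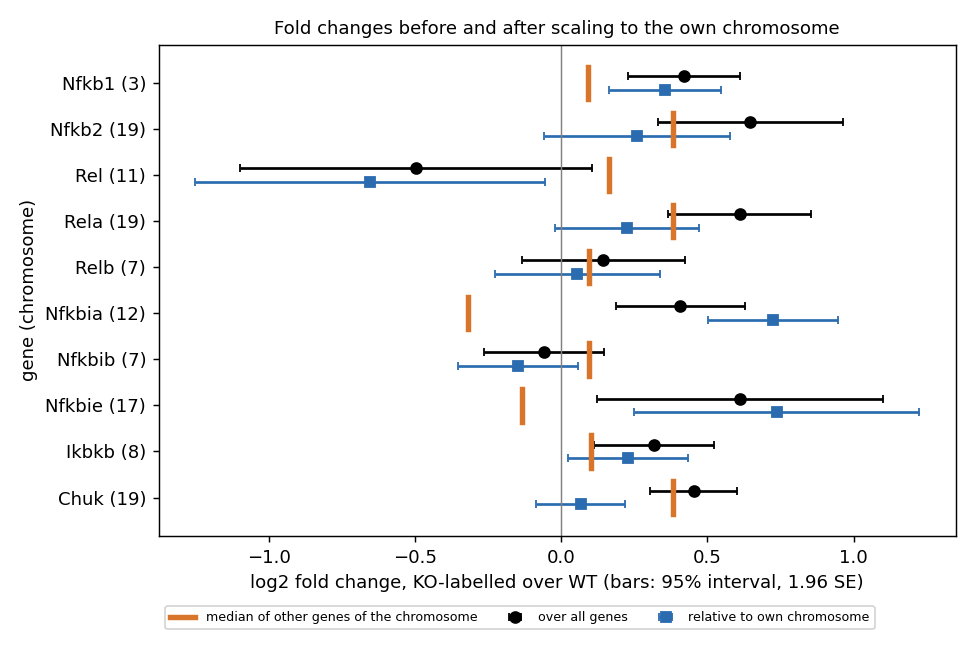
Log2 fold changes (x axis) of the 10 genes (y axis, chromosome in brackets), over all genes (black circles) and relative to the own chromosome (blue squares), with 95% intervals as bars and the median of the other genes of the chromosome in orange. *Rela*, *Nfkb2* and *Chuk* move towards 0 from 0.61, 0.65 and 0.45 to 0.23, 0.26 and 0.07, while *Nfkbia* moves away from it, from 0.41 to 0.72.

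Chromosome 19 held 3 of the 7 genes that rose. Its 457 genes with a mean of at least 50 normalized counts had a median log2 fold change of 0.38, against 0.03 over all 13306 such genes, and 86.2% of them were above 0. Of the 574 chromosome 19 genes with an adjusted p, 45.8% were called higher and 4.18% lower. The shift ran along the whole chromosome. In 10 bins of 45 or 46 genes the median lay between 0.19 and 0.51. *Rela* stood in the bin with the largest median, *Chuk* and *Nfkb2* in bins with medians of 0.40 and 0.44. The log2 scaling factors for chromosome 19 were -0.20 and -0.18 in WT and 0.19 and 0.20 in the KO-labelled group, so both libraries of each group shared the shift.

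Within the chromosome, 76.3% of the other 456 genes had a lower log2 fold change than *Rela*, 80.7% than *Nfkb2* and 58.3% than *Chuk*. The gene next to *Rela* on the left, *Kat5*, an acetyltransferase, rose by 0.36 ± 0.10 (DESeq2 adjusted p = 0.00113), while *Sipa1* on its right had 0.19 ± 0.16 (0.409). Both neighbours of *Chuk* rose more than *Chuk*, *Erlin1* by 0.59 ± 0.10 and *Cwf19l1* by 0.57 ± 0.10 (DESeq2 adjusted p = 7.28e-08 and 2.06e-07), although the difference between neighbours was not tested. *Gbf1*, an exchange factor for Arf proteins to the left of *Nfkb2*, rose by 0.52 ± 0.08 (DESeq2 adjusted p = 6.16e-10). *Psd*, to its right, had 0.88 ± 0.44 (0.115) and shares 4 exonic bases with *Nfkb2* on the other strand. Among the 20 nearest genes, 18 were above 0 around each of *Rela*, *Chuk* and *Nfkb2*. Copy number was not measured, and its part in these values was not tested.

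**Figure D3:**
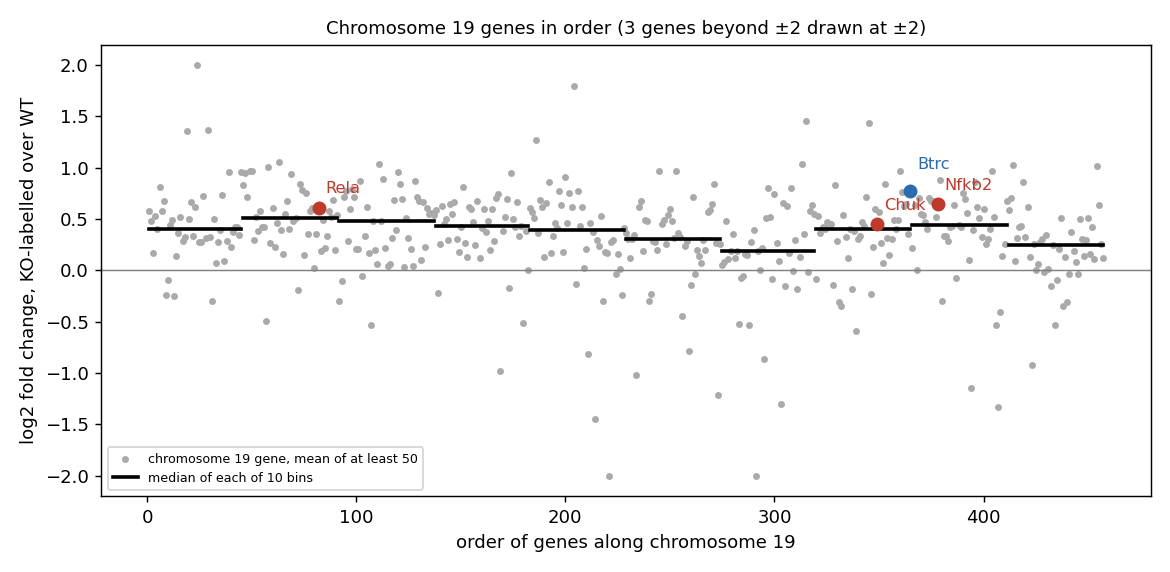
Log2 fold change (y axis) of the 457 chromosome 19 genes with a mean of at least 50 normalized counts, in order along the chromosome (x axis), with the median of each of 10 bins in black, *Rela*, *Chuk* and *Nfkb2* in red and *Btrc* in blue. Every bin median is above 0, from 0.19 to 0.51, and the 3 NF-κB genes lie among their neighbours. 3 genes beyond ±2 are drawn at the edge.

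Levels were next compared between genes, as normalized counts per exonic kilobase. The subunits summed to 1091 ± 14.8 in WT and 1474 ± 44.9 in the KO-labelled libraries (SD, n = 2), the inhibitors to 1566 ± 42.5 and 1822 ± 49.9, and the kinases to 951 ± 14.1 and 1292 ± 42.3. These sums carry the shifts of the chromosomes. With counts scaled to the own chromosome, the means were 1178 and 1372 for the subunits, 1514 and 1930 for the inhibitors and 1084 and 1144 for the kinases, most of whose sum is *Chuk* on chromosome 19. *Nfkb1* was the most abundant subunit per length, with 36.2% of the subunit sum in WT and 35.9% in the KO-labelled libraries. *Rela* followed with 28.0% and 31.7%, *Relb* with 17.7% and 14.5%, *Nfkb2* with 13.4% and 15.5%, and *Rel* with 4.74% and 2.48%. Scaled to the own chromosome, the *Rela* share was 29.7% and 29.9%, the *Nfkb1* share 34.5% and 37.8% and the *Rel* share 4.65% and 2.53%. The scaled *Nfkb2* share was 14.2% and 14.6% and the *Relb* share 17.0% and 15.1%. In the KO-labelled libraries *Relb* and *Nfkb2* did not differ beyond their spread. Without the scaling, the *Nfkb2* share there was 13.5% and 17.5% and the *Relb* share 15.3% and 13.7%. By coding length *Relb* made up 22.5% and 18.7% and *Nfkb2* 9.76% and 11.5%, so the gap between these genes depends on the length used.

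Among the inhibitors, *Nfkbia* and *Nfkbib* were at similar levels per exonic kilobase in WT, at 803 and 717 against 711 and 759, and could not be ordered. Among KO-labelled libraries *Nfkbia* was at 978 and 1037 and *Nfkbib* at 696 and 717. Per coding kilobase *Nfkbib* was above *Nfkbia* in both WT libraries, at 1433 and 1528 against 1344 and 1201. In the KO-labelled libraries it was below, at 1401 and 1443 against 1637 and 1736. The WT order thus depends on the length used. Per exonic length the ratio of *Nfkbia* to *Nfkbib* was 1.13 and 0.946 in WT and 1.41 and 1.45 in the KO-labelled libraries. With the chromosome scaling it was 0.976 and 0.826 against 1.60 and 1.68. *Nfkbie* was the low inhibitor, with 4.53% of the inhibitor sum in WT and 5.96% in the KO-labelled libraries. *Chuk* exceeded *Ikbkb* by 11.9 times in WT and 13.1 times in the KO-labelled libraries, and by 3.37 and 3.70 times per coding length, because the annotation gives *Ikbkb* 19088 exonic but 2368 coding bases. With the chromosome scaling this ratio turned direction, to 13.2 in WT and 11.8 in the KO-labelled libraries per exonic length.

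The balance of inhibitors to subunits per exonic length was 1.48 and 1.39 in WT, with a mean of 1.44 ± 0.06 (SD, n = 2). In the KO-labelled libraries it was 1.19 and 1.29, with a mean of 1.24 ± 0.07. This direction depends on the scaling. *Rela* and *Nfkb2* lie on the higher chromosome 19 and *Nfkbia* on the lower chromosome 12, and with counts scaled to the own chromosome the balance was 1.31 and 1.26 in WT and 1.34 and 1.47 in the KO-labelled group. *Rela* to *Relb* stood at 1.57 and 1.59 in WT and at 2.10 and 2.29 in the KO-labelled libraries, with scaled values of 1.75 in both WT libraries and 1.89 and 2.06. The ratio of *Nfkbia* to *Rela* overlapped between groups, at 2.79 and 2.22 in WT and 2.03 and 2.30 in the KO-labelled group, and so did that of *Nfkb2* to *Nfkb1*, at 0.370 and 0.368 against 0.369 and 0.499. Scaled to the chromosome, *Nfkbia* to *Rela* was apart in the other direction, at 2.16 and 1.76 against 2.57 and 2.95, and *Nfkb2* to *Nfkb1* still overlapped. With 2 against 2 libraries an exact permutation test cannot go below p = 0.333, so all ratios are given as values.

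**Figure D4:**
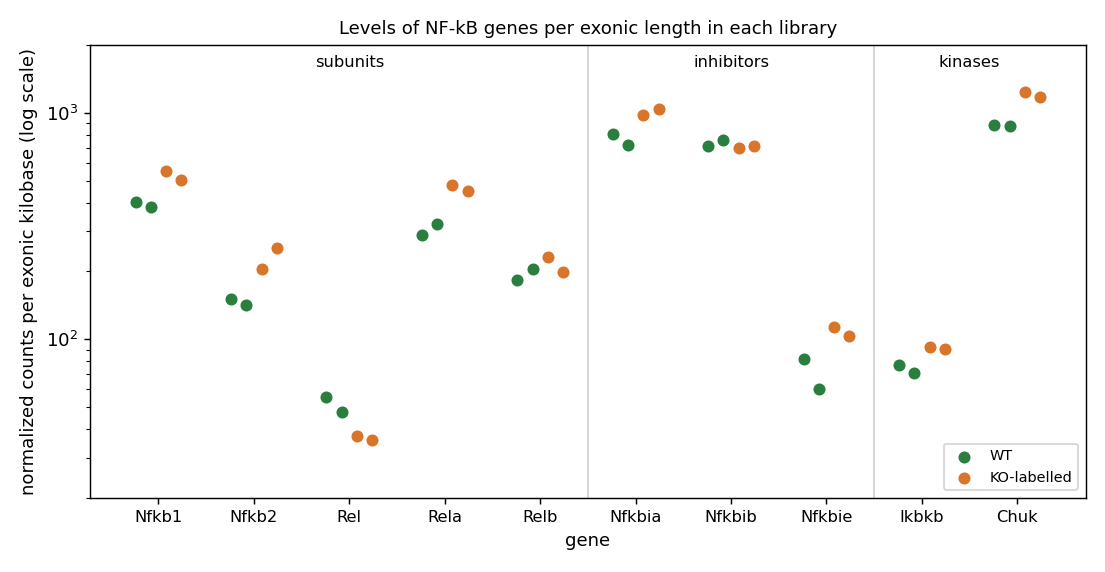
Normalized counts per exonic kilobase (y axis, log scale) of the 10 genes, ordered by role (x axis), with 1 point per library, WT in green and KO-labelled in orange. *Chuk* is highest, between 870 and 1230, and *Rel* lowest, between 35.8 and 55.4, and the order of *Nfkbia* and *Nfkbib* is mixed only in WT.

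Other genes of the pathway were read from lists by function, beside the shares of all genes given above (16.4% higher and 15.8% lower, and relative to the chromosome 12.7% and 14.5%). Of 23 kinases, adaptors and ubiquitin ligases that act on the IκB kinase complex, 4 rose, 1 fell and 18 did not pass, with a median log2 fold change of -0.03. *Rnf31* and *Sharpin*, subunits of the ligase that builds linear ubiquitin chains, rose by 0.56 ± 0.11 and 0.49 ± 0.17 (DESeq2 adjusted p = 1.25e-06 and 0.0127). *Rbck1*, a further subunit of that ligase, had 0.19 ± 0.08 and did not pass (0.0554), nor did it relative to its chromosome, at 0.09 (0.453). *Birc2*, which encodes the ubiquitin ligase cIAP1, rose by 0.30 ± 0.08 (0.00205), but relative to its chromosome it had 0.16 and did not pass (0.155). *Traf3*, which restrains the alternative pathway, fell by 0.36 (0.00144), and as it lies on chromosome 12 its value relative to the chromosome was -0.04 (0.822). The 4 of 23 that rose are close to the share of all genes. In the fit by chromosome 3 of the 23 were higher and 2 lower.

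Of 11 negative regulators and further IκB genes, 0 rose, 3 fell and 8 did not pass, with a median of -0.18. *Tnip1*, a partner of the deubiquitinase A20, fell from a mean of 1656 to 1082 normalized counts (log2 fold change -0.61 ± 0.11, DESeq2 adjusted p = 1.53e-07). *Fam105b*, the annotation's name for the linear-chain deubiquitinase *Otulin*, had a log2 fold change of -0.53 ± 0.11 (6.51e-06). *Nfkbiz*, a nuclear IκB protein, had -1.09 ± 0.30 (0.00139). These were lower relative to their chromosomes as well, by -0.77, -0.60 and -0.83, and in that fit 4 of the 11 were lower and 0 higher.

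Of 7 genes of the machinery that ubiquitinates IκB, 4 rose, 0 fell and 3 did not pass, with a median of 0.22. *Btrc*, which encodes an F-box protein of the β-TrCP type that recognises phosphorylated IκB, is on chromosome 19 too. It rose from a mean of 1599.8 to 2734 normalized counts, by 0.77 ± 0.10 on the log2 scale (DESeq2 adjusted p = 1.79e-14). Unlike the 3 NF-κB genes of that chromosome, it passed the test relative to the chromosome, at 0.39 (adjusted p = 4.21e-04), although the difference between *Btrc* and those genes was not tested. The other β-TrCP gene, *Fbxw11*, was more abundant, with means of 4802 in WT and 4983 in the KO-labelled libraries. Its log2 fold change of 0.05 ± 0.08 did not pass (DESeq2 adjusted p = 0.689), nor did -0.10 relative to its chromosome (0.384). The ligase subunits *Skp1a* and *Cul1* rose by 0.29 and 0.26 (5.00e-05 and 0.0013). Relative to the chromosome *Skp1a* had 0.13 and did not pass (0.128), while *Cul1* was higher by 0.20 (0.0189).

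Of 18 receptors and ligands, 13 had an adjusted p, of which 1 rose and 2 fell, with a median of -0.13. *Tnfsf11*, the ligand RANKL, fell from 266 to 129 mean normalized counts (log2 fold change -1.04 ± 0.25, DESeq2 adjusted p = 2.54e-04). *Ltbr*, the lymphotoxin β receptor, fell from 176 to 99.9 (-0.82 ± 0.31, 0.0271). *Tnfsf12* had a log2 fold change of 0.97 but shares 48.3% of its exonic bases with another gene on the same strand, so its value is uncertain. The cytokine genes ranged from these levels down to 0. *Ltb* had 46 to 77 raw counts per library, *Tnf* had 4 raw counts in each WT library and 0 in both KO-labelled libraries, and *Il1b* had 2 counts in a single library.

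Of 29 genes known as NF-κB targets, 18 had an adjusted p, of which 4 rose and 5 fell, with a median of -0.24. Relative to the chromosome 2 were higher (*Icam1* and *Ier3*) and 5 lower (*Cflar*, *Ccnd1*, *Ptgs2*, *Birc3* and *Junb*), which is not the same set. Over all genes 16.4% rose and 15.8% fell, and relative to the chromosome 12.7% and 14.5%. *Icam1*, an adhesion molecule, rose from 2371 to 4034 mean normalized counts (log2 fold change 0.77 ± 0.08, DESeq2 adjusted p = 2.14e-18), with a non-coding gene on the other strand over 19.3% of its exonic bases. The transcription factor gene *Irf1* and the survival gene *Bcl2l1* rose by 0.38 ± 0.11 and 0.23 ± 0.09 (0.00266 and 0.0349), but did not pass relative to their chromosomes, at 0.23 and 0.13 (0.117 and 0.313). *Cflar*, which encodes the caspase-8 inhibitor cFLIP, fell from 202 to 78.4 (-1.36 ± 0.30, 4.40e-05). *Ccnd1*, for cyclin D1, had -0.53 ± 0.07 (2.20e-12), with 21.3% of its exonic bases shared with a gene on the other strand, and the stress gene *Gadd45b* had -0.75 ± 0.18 (3.00e-04). *Gadd45b* lies on chromosome 10, and relative to it the value of -0.41 did not pass (0.0876). *Ptgs2*, for the prostaglandin-forming cyclooxygenase COX-2, fell from 48 and 87 raw counts in WT to 8 and 25 in the KO-labelled libraries (log2 fold change -2.57 ± 0.58, DESeq2 adjusted p = 7.94e-05). It and *Cflar* were the 2 targets past the study's thresholds. The death receptor gene *Fas*, on chromosome 19, had only 6 to 16 raw counts per library and a log2 fold change of -0.42 ± 1.08 (0.823). Of the 11 targets without an adjusted p, *Vcam1*, *Ccl2* and *Csf2* were at 0 in all libraries and *Il6* had 0 to 4 raw counts.

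Markers of other cells were read beside these values and the shares of all genes tested (16.4% higher and 15.8% lower). Of 8 blood cell and macrophage markers, 3 had an adjusted p, of which 2 rose (*Itgam* and *Cd68*). *Cd68* did not pass relative to its chromosome (log2 fold change 0.39, DESeq2 adjusted p = 0.0983). *Itgam* had 18 and 28 raw counts in WT and 178 and 184 in the KO-labelled libraries (log2 fold change 2.45, DESeq2 adjusted p = 1.50e-08), and relative to its chromosome 2.36 (8.27e-08). The summed level of the 8 per exonic kilobase was 280 to 284 in WT and 395 to 441 in the KO-labelled libraries. The general leukocyte gene *Ptprc* and the macrophage genes *Lyz2* and *Emr1* had 0 raw counts in both WT libraries and at most 2 in a KO-labelled library. Of 7 fibroblast markers, 4 had an adjusted p, of which 1 rose (*Thy1*, by 1.59 on the log2 scale). The sums were 75.9 to 89.3 in WT and 215 to 251 in the KO-labelled libraries. *Thy1* alone made up 68.0 and 79.1 of the WT sums and 205 and 239 of the KO-labelled sums, just as *Cd68* made up most of the blood cell sums, with 251 and 256 in WT and 392 and 351 in the KO-labelled libraries. *Postn* was at 0 in both WT libraries and *Lum* in both KO-labelled libraries. Of 6 primitive endoderm markers, 4 had an adjusted p, of which 2 fell (*Gata4* and *Sox7*). The sums were 141 to 160 in WT and 63.4 to 76.5 in the KO-labelled libraries. Of the mESC markers 2 of 8 rose (*Zfp42* and *Dppa5a*) and 0 fell. Relative to their chromosomes these did not pass (DESeq2 adjusted p = 0.1945 and 0.0945), while *Klf4* and *Esrrb* were higher (0.0142 and 1.43e-04). The part of these genes in the NF-κB values was not tested.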

How the data were processed

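Per the labels and the study's methods, RNA was depleted of ribosomal RNA, stranded libraries were made, and paired reads were mapped to mm9 with STAR and assigned to GENCODE vM1 genes with featureCounts. The authors deposited raw counts per gene, with no normalization. Versions and the strand setting of the counting are not given in the sources used here, and labels and methods name different instruments. Groups and replicate numbers came from the sample titles. Gene models were those of the NCBIM37 (mm9) GENCODE vM1 annotation, with 1-based coordinates.

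Differences were tested over all genes with DESeq2 1.42.0 (R 4.3.3, Wald test, group as the only term, Benjamini-Hochberg adjustment), as the study did. Positive values are higher in the KO-labelled libraries, and intervals are 1.96 SE. The fit relative to the own chromosome used median-of-ratios factors per library and chromosome from genes with a mean of at least 50 normalized counts, for chromosomes with at least 20 such genes. A gene helps to set its own factor. Levels were normalized counts per exonic or coding kilobase. Scripts were tested on simulated counts. Copies were blastn 2.17.0 matches of at least 75 bases and 95% identity. The sources name no molecular identifiers, so low counts may hold PCR copies.

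Alternatives were edgeR 4.0.16 (quasi-likelihood test), TMM and upper-quartile factors, a low-count filter (10 counts in 2 libraries), a replicate block, stricter thresholds, other minimum means, coding length, and each library left out. The 10 genes and the lists were chosen with earlier results of these data known. Named were the 10 genes, *Spen*, up to 3 genes per direction and list by smallest adjusted p (mean of at least 50), list genes on chromosome 19 and the nearest such gene on each side of each NF-κB gene there. Other genes named were chosen after their values were seen. Among them are *Ptgs2*, *Ier3*, *Birc3*, *Junb*, *Ltb*, *Il1b*, *Il6*, *Tnf*, *Fbxw11*, *Rbck1*, genes at 0 and the markers.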

Additional observations from a re-analysis of the deposited data

How the results depend on the processing

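Over all genes, 78 of the values of single NF-κB genes under alternatives kept direction and side of the threshold and 12 no longer passed. *Rela*, *Nfkb1* and *Chuk* passed in every fit. Relative to the own chromosome 80 kept both, 6 no longer passed, 2 newly passed and 2 reversed. The count of 7 higher genes was 4 at an adjusted p under 0.001, which 8.46% of all genes passed as higher, and 0 with a 2-fold minimum, which 2.09% passed. It was 3 to 6 with single libraries left out (4 without WT replicate 2, where 12.1% of genes were higher, and 3 without KO-labelled replicate 2, 10.8%). Relative to the chromosome the count of 3 was 1 to 3 with single libraries left out (1 without WT replicate 2 or without KO-labelled replicate 1, where 8.45% and 7.28% of genes were higher). edgeR called 4 genes higher relative to the chromosome, and 1 lower in place of 0. Of all genes it called 2711 higher (15.6%) and 3213 lower (18.4%) there. In the fits that leave a library out the lone library is assumed to vary like the other group. *Relb* relative to chromosome 7 reversed to -0.02 without WT replicate 1 and -0.061 without KO-labelled replicate 1, over a leave-one-out range of -0.061 to 0.17. The chromosome 19 median of 0.38 was 0.42 with upper-quartile factors, 0.36 and 0.40 at minimum means of 10 and 500, and 0.37 to 0.40 with single libraries left out. Over all genes DESeq2 called 2909 higher and 2805 lower, and edgeR 3389 and 3626. With the replicate block 1857 (11.8%) and 1973 (12.5%) of 15789 genes tested were called, with 5 NF-κB genes higher. Relative to the chromosome that block gave 1291 (8.18%) and 1644 (10.4%), with 2 NF-κB genes higher. Same-numbered libraries did not deviate together (correlation -0.02 over 13306 genes), so the numbers do not pair them. Scaling the levels per length to the own chromosome, an alternative chosen after seeing the data, reversed 5 log2 ratios of KO-labelled over WT means: inhibitors to subunits (to 0.13), *Nfkbia* to *Rela* (0.49), *Nfkb2* to *Nfkb1* (-0.087), *Chuk* to *Ikbkb* (-0.16) and the *Nfkb1* share of subunits (0.13). The causes of these changes were not tested. Genes with few counts, such as *Tnf* with 0 to 4, had no adjusted p at this depth.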
